A study of Homo sapiens with 6 samples.

Results

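AMP-activated protein kinase (AMPK) is described here through 10 genes. Of these, 6 are among the genes for its subunits (PRKAA1, PRKAA2, PRKAB1, PRKAB2, PRKAG1 and PRKAG2). The other 4 are for kinases upstream of it and their partners (STK11, STRADA, CAB39 and CAMKK2). The genes were chosen by name, for their place in the pathway and with earlier results of these data known, and are 10 of the 58735 genes in the expression table. The libraries are labelled as MM.1S, an established human multiple myeloma cell line, and 1 marker of that line, given below, went against the label. In 3 of them the cells had received a control siRNA (si-NC), and in the other 3 an siRNA against PRMT1 (PRMT1 KD), with no other allele or agent named for either group. PRMT1 is the main enzyme that places asymmetric dimethyl marks on arginines. For the RNA sequencing the cells were taken 72 h after transfection, which of its PRMT1 siRNAs went into these libraries is not stated in the sources used here, and RNA sequencing asked which genes follow the loss of PRMT1.

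AMPK is a sensor of cellular energy. It is built from a catalytic alpha subunit, a scaffolding beta subunit that also binds glycogen, and a gamma subunit that binds AMP, ADP and ATP, and each subunit has alternative forms encoded by separate genes. When AMP rises, the alpha subunit is phosphorylated in its activation loop by LKB1 (STK11), which works in a complex with the pseudokinase STRAD and the scaffold MO25, whereas CaMKK2 phosphorylates the same residue when calcium rises. Activated AMPK restrains lipid and protein synthesis and promotes fatty acid oxidation, autophagy and the turnover and renewal of mitochondria. This regulation acts largely on the proteins, and only RNA was measured here.

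Levels are FPKM (fragments per kilobase of gene model, here scaled between libraries by size factors rather than by each library's own total), a unit that allows genes to be compared per length. The libraries held 14439217 to 16465026 reads on genes. PRMT1 itself stood at 61.7, 62.8 and 58.9 FPKM in the control libraries and at 13.3, 14.0 and 12.5 in the PRMT1 KD libraries, 21.7% of the control mean, so the targeted gene went with the labels. Of 9 plasma cell and MM.1S markers, 8 were present, among them IRF4 at 115 to 118 FPKM, XBP1 at 258 to 292 and SDC1 at 45.5 to 54.7. MAF, which the translocation known in MM.1S places under an immunoglobulin enhancer, had 0 reads in all 6 libraries and so went against the label of the line, whose identity was not tested further. Among 9 markers of other cell types, CD3E stood at 32.1 to 39.0 FPKM, while CD3D reached at most 0.845 and the B cell marker MS4A1 and the erythroid marker HBB were at 0 in all libraries. The log2 fold change of CD3E was 0.19, with an adjusted p of 0.135 in limma, and the part of these markers in the results below was not tested.

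The clearest pattern among the members was which of the subunit genes had reads. PRKAA1, for the alpha 1 subunit, had between 856 and 1078 reads in each library, whereas PRKAA2, for the alpha 2 subunit best known from muscle, had 0 reads in all 6. PRKAG1, for the gamma 1 subunit, had between 533 and 756 reads, whereas PRKAG2, for the gamma 2 subunit, again had 0 in all 6. The exons of PRKAA2 span 9354 bases and those of PRKAG2 span 6740, more than the 6563 of PRKAA1 and the 4184 of PRKAG1. In bulk RNA, fewer cells that express a gene and less of its RNA per cell cannot be told apart. Counting 3 reads over the 3 libraries of a group as the limit that a count of 0 allows, PRKAA2 lay under 0.00652 FPKM in control and 0.00695 in PRMT1 KD cells. PRKAA1 was accordingly at least 1330-fold higher than PRKAA2 in control and at least 1450-fold higher in PRMT1 KD cells. For PRKAG1 against PRKAG2 the lower bounds were 1110-fold and 976-fold, and these bounds cover counting error only. A value of 0 in every library was shared by 3320 of 19951 protein-coding genes (16.6%) and by 0 of 20 housekeeping genes checked. Housekeeping genes are abundant, so they could hardly have been at 0 and do not test the zeros of other genes. MAF, a marker of the labelled line, was also at 0 in all 6 libraries. Whether a 0 in these data means that the RNA was absent was not tested.

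The region around the start of these 4 genes is shown because each pair holds a detected and an undetected gene for the same kind of subunit. The sequences are from RefSeq (GRCh38.p14, the assembly version of hg38), run from 250 bases before to 50 bases after the start, and are written 5′ to 3′ on the strand of the gene. Capitals mark matches to 7 motifs searched on both strands, and adjoining or overlapping matches merge into 1 run of capitals: the GC box GGGCGG, an ETS motif CCGGAAG, the CCAAT box CCAAT, a YY1 motif AAGATGG, the CRE core TGACG, a forkhead motif GTAAACA and the TATA box TATAAA. PRKAA1 is at chr5:40798128-40798427 (minus strand), PRKAA2 at chr1:56645064-56645363 (plus strand), PRKAG1 at chr12:49018727-49019026 (minus strand), and the first of 5 RefSeq starts of PRKAG2 at chr7:151877066-151877365 (minus strand).
PRKAA1: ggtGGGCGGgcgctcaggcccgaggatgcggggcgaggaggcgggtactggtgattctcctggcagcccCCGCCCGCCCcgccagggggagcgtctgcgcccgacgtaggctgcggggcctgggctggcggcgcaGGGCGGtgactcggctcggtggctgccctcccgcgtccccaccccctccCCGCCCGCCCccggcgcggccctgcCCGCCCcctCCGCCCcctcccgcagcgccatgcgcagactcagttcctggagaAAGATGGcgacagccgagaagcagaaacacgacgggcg
PRKAA2: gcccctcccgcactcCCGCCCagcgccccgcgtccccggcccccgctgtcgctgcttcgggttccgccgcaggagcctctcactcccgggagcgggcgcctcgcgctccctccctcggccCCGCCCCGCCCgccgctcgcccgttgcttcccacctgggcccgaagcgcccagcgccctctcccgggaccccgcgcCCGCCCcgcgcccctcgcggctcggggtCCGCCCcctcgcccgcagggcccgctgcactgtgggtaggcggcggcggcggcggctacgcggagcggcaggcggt
PRKAG1: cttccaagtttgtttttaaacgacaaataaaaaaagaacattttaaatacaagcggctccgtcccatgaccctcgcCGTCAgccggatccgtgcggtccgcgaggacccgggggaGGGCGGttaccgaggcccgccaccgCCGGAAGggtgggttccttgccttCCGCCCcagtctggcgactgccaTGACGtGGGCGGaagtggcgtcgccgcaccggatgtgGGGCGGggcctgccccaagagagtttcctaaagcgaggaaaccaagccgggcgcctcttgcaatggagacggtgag
PRKAG2: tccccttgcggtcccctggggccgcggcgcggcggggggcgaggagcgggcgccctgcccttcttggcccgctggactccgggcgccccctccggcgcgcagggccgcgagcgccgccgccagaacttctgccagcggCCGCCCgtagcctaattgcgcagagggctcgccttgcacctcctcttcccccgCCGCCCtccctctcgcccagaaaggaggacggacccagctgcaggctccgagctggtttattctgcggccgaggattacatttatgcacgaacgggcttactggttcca

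All 4 of these windows held more CG dinucleotides than the median promoter. PRKAA1 had 36 and PRKAA2 had 48 in 300 bases, and PRKAG1 had 29 and PRKAG2 had 34, against a median of 14 over 35116 RefSeq promoters of this length. The other 4 RefSeq starts of PRKAG2 had 4, 10, 10 and 50, so the undetected gene had no uniform content over its starts. GC boxes, held by 45.0% of all promoters, matched 8 times in PRKAA1, 5 times in PRKAA2, 4 times in PRKAG1 and 2 times in PRKAG2. The ETS motif, held by 10.3%, matched once in PRKAG1 and not in the other 3, the YY1 motif, held by 5.84%, matched once in PRKAA1 only, and the CRE core, held by 24.6%, matched 2 times in PRKAG1 only. None of the 4 windows held a match to the CCAAT box, the forkhead motif or the TATA box, which 34.6%, 3.42% and 11.5% of all promoters hold. Of the 10 members, 9 had an entry in the RefSeq table, and STRADA had none. These matches describe the letters of the sequence only.

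**Figure D1:**
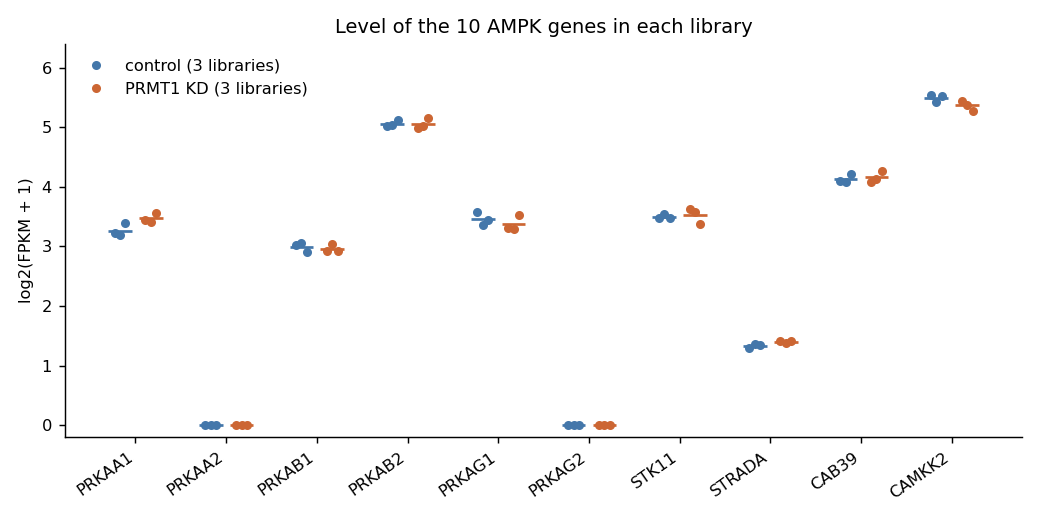
Level of each of the 10 genes in each library, on a log2(FPKM + 1) axis. Each point is 1 library, blue for control and orange for PRMT1 KD, and the short line is the mean of 3; PRKAA2 and PRKAG2 lie at 0 in all 6 libraries, and CAMKK2 and PRKAB2 are the highest.

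The catalytic subunit gene PRKAA1 (ENSG00000132356, chr5:40759379-40798374, minus strand) stood at 8.31, 8.09 and 9.50 FPKM in control and at 9.83, 9.68 and 10.8 FPKM in PRMT1 KD libraries. All 3 PRMT1 KD libraries were above all 3 control libraries, but the highest control and the lowest PRMT1 KD library were close. Its mean level in PRMT1 KD was 117% of control, a log2 fold change of 0.21 on the FPKM + 1 scale (95% interval 0.03 to 0.38). This did not pass the threshold after adjustment over all 13585 genes tested (limma, unadjusted p = 0.0278, adjusted p = 0.193), and a two-sided exact permutation of the libraries gave p = 0.1, the lowest value possible for 3 against 3. An unadjusted p under 0.05 was reached by 19.5% of all genes tested, and groups that do not overlap were found for 25.9%.

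The beta subunit genes were both transcribed, PRKAB2 above PRKAB1. PRKAB1 (chr12:119667753-119681630, plus strand) stood at 7.13, 7.28 and 6.53 FPKM in control and 6.55, 7.26 and 6.61 in PRMT1 KD libraries. PRKAB2 (chr1:147155106-147172550, minus strand) stood at 31.4, 31.8 and 33.7 FPKM in control and 30.8, 31.5 and 34.8 in PRMT1 KD libraries, and the groups overlapped for both genes. In control cells the FPKM of PRKAB2 was 4.63 times that of PRKAB1. This ratio depends on length, since the gene model of PRKAB1 spans 6246 exonic bases against 2610 in its longest coding transcript (5460 and 5417 for PRKAB2), and per length of the longest transcript it was 1.95. PRKAB1 made up 18.5%, 18.6% and 16.2% of the beta subunit FPKM in control libraries (mean 17.8% ± 1.35, SD, n = 3) and 17.6%, 18.7% and 16.0% in PRMT1 KD libraries (17.4% ± 1.39, n = 3; exact permutation test, two-sided p = 0.7). Per length of the longest transcript PRKAB1 had 33.9% of the pair in control and 33.3% after PRMT1 KD. The log2 fold change was -0.03 for PRKAB1 (95% interval -0.19 to 0.13; limma, adjusted p = 0.84) and 0.002 for PRKAB2 (-0.14 to 0.14; adjusted p = 0.988).

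Among the gamma subunit genes PRKAG1 (chr12:49002274-49018825, minus strand) supplied most of the RNA. Its level was 10.9, 9.32 and 9.86 FPKM in control and 8.93, 8.85 and 10.5 FPKM in PRMT1 KD libraries. The third PRMT1 KD library lay inside the control range and the other two below it. The log2 fold change was -0.08 (95% interval -0.28 to 0.12; limma, adjusted p = 0.628). PRKAG3, for the gamma 3 subunit of fast muscle and not a member, stood at 0.688, 0.744 and 0.653 FPKM in control and 0.563, 0.375 and 0.532 in PRMT1 KD libraries. These values rested on 18 to 40 reads, below the filter of a mean of 1 FPKM, and were not tested. Taken as sums over the forms of a subunit, FPKM was 8.63 ± 0.758 for alpha, 39.3 ± 0.868 for beta and 10.7 ± 0.788 for gamma in control (mean ± SD, n = 3), and 10.1 ± 0.598, 39.2 ± 2.08 and 9.91 ± 0.965 in PRMT1 KD cells. The gaps between these sums depend on length. Per length of the longest coding transcript, control means were 11.1 for PRKAA1, 24.7 for PRKAG1, 16.7 for PRKAB1 and 32.5 for PRKAB2.

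The genes of the LKB1 complex differed widely in level and little between the groups. STK11 (chr19:1177558-1228435, plus strand), which encodes LKB1, stood at 10.1, 10.7 and 10.2 FPKM in control and 11.4, 10.9 and 9.39 FPKM in PRMT1 KD libraries. The PRMT1 KD libraries spread to both sides of the control libraries, and the log2 fold change was 0.03 (95% interval -0.15 to 0.21; limma, adjusted p = 0.879). CAB39 (chr2:230712845-230821075, plus strand), which encodes MO25 alpha, the scaffold that holds LKB1 in its active shape, stood at 16.2, 16.0 and 17.5 FPKM in control and 16.0, 16.5 and 18.3 FPKM in PRMT1 KD libraries. Its groups overlapped, with a log2 fold change of 0.03 (-0.13 to 0.18; adjusted p = 0.86).

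STRADA (chr17:63682336-63741986, minus strand), which encodes the pseudokinase that binds and activates LKB1, had the lowest level of the 8 members with reads. It stood at 1.46, 1.56 and 1.55 FPKM in control and 1.66, 1.61 and 1.66 FPKM in PRMT1 KD libraries, from 251 to 297 reads each. The PRMT1 KD libraries were all above the control libraries, by a log2 fold change of 0.07 (95% interval -0.15 to 0.28; limma, adjusted p = 0.737; exact permutation p = 0.1). The paralog STRADB stood at 14.3, 15.3 and 13.9 FPKM in control and 15.7, 15.2 and 16.9 FPKM in PRMT1 KD libraries, 9.52 times the level of STRADA in control (log2 fold change 0.13; adjusted p = 0.296). How large that gap is depends on length: the gene model of STRADA spans 10860 exonic bases although its longest coding transcript has 2959, and by reads rather than FPKM STRADA made up 26.0% of the pair in control against 9.51% by FPKM. Per length of the longest coding transcript the ratio of STRADB to STRADA was 3.67. In addition, 1970 of these bases (18.1%) also belong to exons of AC046185.1 on the same strand, a gene with 0 reads, and whether reads there were left out of STRADA was not tested. The FPKM of STRADA is therefore uncertain as a level, while the length affects both groups alike.

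CAB39 held most of the MO25 RNA, with 78.8%, 79.4% and 78.3% of the FPKM of CAB39 and CAB39L in control and 77.2%, 80.5% and 79.2% in PRMT1 KD libraries (exact permutation test, two-sided p = 1.0). CAB39L, for MO25 beta, stood at 4.16 to 4.84 FPKM in control and 3.98 to 4.81 in PRMT1 KD libraries, and its log2 fold change was 0.01 (adjusted p = 0.954 in limma).

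**Figure D2:**
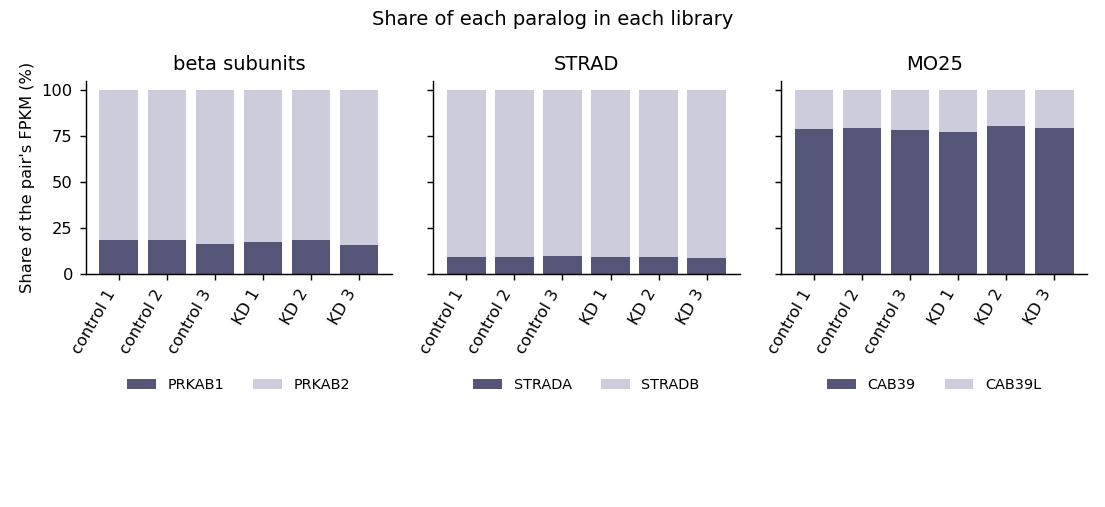
Share of each paralog in the FPKM of its pair, in percent, for the beta subunits, STRAD and MO25. Each bar is 1 library, the dark part is the first gene of the pair and the light part the second; PRKAB1 took 16.0% to 18.7%, STRADA 8.93% to 10.1% and CAB39 77.2% to 80.5%, with control and PRMT1 KD bars overlapping in height.

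CAMKK2 (chr12:121237691-121298308, minus strand), the calcium-dependent kinase of AMPK, was the most abundant member. It stood at 45.8, 42.2 and 44.9 FPKM in control and 42.7, 40.6 and 37.7 FPKM in PRMT1 KD libraries. Only the first PRMT1 KD library reached into the control range, above the lowest control. PRMT1 KD cells had 91.1% of the control mean, a log2 fold change of -0.13 (95% interval -0.27 to 0.008; limma, unadjusted p = 0.0603, adjusted p = 0.278; exact permutation p = 0.2). Its paralog CAMKK1 had 1 to 9 reads in a library, and CAMKK2 made up 99.9% of the FPKM of the pair in both groups.

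Ordered by level in control cells, CAMKK2 came first with a mean of 44.3 FPKM, followed by PRKAB2 at 32.3, CAB39 at 16.6, STK11 at 10.3, PRKAG1 just below it (9.32 to 10.9 over the libraries), PRKAA1 at 8.63, PRKAB1 at 6.98 and STRADA at 1.52. The ranges of STK11 and PRKAG1 overlapped, as did those of PRKAG1 and PRKAA1, and the other neighbours did not overlap. In PRMT1 KD cells PRKAA1, at 10.1, came between STK11 and PRKAG1, and it overlapped both. CAMKK2 lay at the percentile 93.3 of all genes tested in control cells and STRADA at the percentile 10.8. The order rests on gene models that join the exons of all transcripts, so a gene with many alternative exons appears lower per length. Per length of the longest coding transcript the order in control was CAMKK2, PRKAB2, STK11, PRKAG1, CAB39, PRKAB1, PRKAA1 and STRADA.

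Across the members, 0 of the 8 tested were called at an adjusted p under 0.05 in limma, against 279 of 13585 genes (2.05%), of which 145 (1.07%) were higher and 134 (0.986%) lower in PRMT1 KD cells. At an unadjusted p under 0.05, 1 of the 8 passed, and limma's voom on the reads worked back from FPKM also called 0 of the 8, beside 895 of all genes (6.59%), 468 (3.44%) higher and 427 (3.14%) lower. The count over all genes moved with the setting, to 43 with no trend in the prior variance and to 13 to 94 with any 1 library left out, while that of the members stayed at 0. With 8 genes tested and shares this low, a count of 0 says little about the members. Groups that do not overlap were found for 2 of the 8, PRKAA1 and STRADA, close to the share of all genes given above. Of the 8 log2 fold changes, 5 were above 0 and 3 below, beside 52.6% above 0 over all genes tested. Their median was 0.015, beside 0.01 over all genes tested. With upper-quartile scaling the split was 4 and 4. The 95% intervals of all 8 lay between -0.28 and 0.38, so changes of a log2 unit lay outside every interval. The p-values measure the spread between these libraries, which may be technical, since the labels do not say whether the libraries came from separate cultures. The methods of the study speak of biological replicates in each experiment in general, without naming the RNA sequencing.

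**Figure D3:**
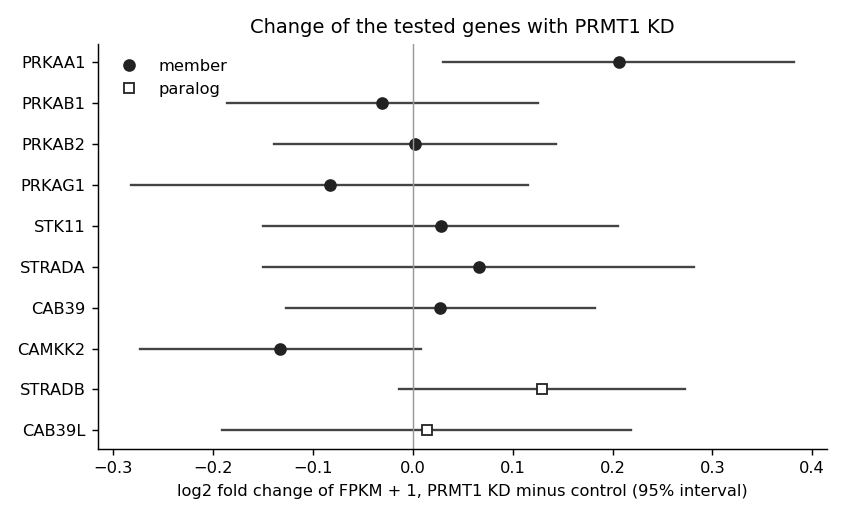
Log2 fold change of FPKM + 1, PRMT1 KD minus control, for the 8 tested members (filled circles) and the tested paralogs STRADB and CAB39L (open squares), with 95% intervals from limma as lines. The interval of PRKAA1, 0.03 to 0.38, is the one that leaves out 0.

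Genes of the pathway outside the 10 members were taken from 4 lists. Over all genes tested, limma called 2.05% (1.07% higher, 0.986% lower), and 52.6% had a log2 fold change above 0. These shares apply beside each list. Of 28 genes for AMPK substrates 25 were tested, and limma called 1, lower in PRMT1 KD cells (voom called 3, 2 higher and 1 lower, beside 6.59% of all genes). This was MTFR1L, a mitochondrial outer membrane protein that AMPK phosphorylates in the control of mitochondrial shape, at 17.4, 17.8 and 18.0 FPKM in control and 14.3, 14.0 and 14.5 in PRMT1 KD libraries, which is 80.6% of control (log2 fold change -0.29, SE 0.0442; limma, adjusted p = 0.0343). The log2 fold change stayed at -0.31 to -0.28 when any 1 of the 6 libraries was left out, but the call was then lost (adjusted p 0.0703 to 0.146), and 25.7% of its 5817 exonic bases overlap exons of other genes. FOXO3, a transcription factor, stood at 32.6 to 34.4 FPKM in control and 37.9 to 38.6 in PRMT1 KD libraries (log2 fold change 0.18; adjusted p = 0.0796). TBC1D1, a Rab GTPase-activating protein in glucose transport, stood at 11.2 to 12.4 and 13.2 to 14.5 FPKM (0.24; adjusted p = 0.104). Of the 25, 18 had a log2 fold change above 0 and 7 below (16 and 9 with upper-quartile scaling), with a median of 0.06, beside 0.01 over all genes tested. An unadjusted p under 0.05 was found for 6 of the 25 and groups that do not overlap for 9, beside 19.5% and 25.9% of all genes tested. The list of substrates was compiled by protein, and a change in the RNA says nothing of phosphorylation.

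The kinases that LKB1 activates besides AMPK gave no call. Of 12 such genes 7 were tested, 6 with a log2 fold change above 0 and 1 below (5 and 2 with upper-quartile scaling), beside 52.6% above 0 over all genes tested, and limma called 0 (1 at an unadjusted p under 0.05, beside 19.5% of all genes; voom called 0). SNRK stood at 15.1 to 17.2 FPKM in control and 17.4 to 18.4 in PRMT1 KD libraries (log2 fold change 0.15; adjusted p = 0.243). MARK3 gave 0.11 (adjusted p = 0.375) and BRSK1 gave -0.09 (adjusted p = 0.698). NUAK1, NUAK2 and MARK1 had 0 reads in all 6 libraries.

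Of 20 genes for regulators of AMPK other than the members, such as phosphatases, lysosomal partners and ubiquitin ligases, 17 were tested, 6 above 0 and 11 below, and limma called 0 (3 at an unadjusted p under 0.05, beside 19.5% of all genes; voom called 1, lower, beside 3.14%). The values of these 3 were all below 0. FNIP2, a partner of folliculin, stood at 7.36 to 7.96 FPKM in control and 6.35 to 6.70 in PRMT1 KD libraries (log2 fold change -0.20; adjusted p = 0.126). MAGEA6 and MAGEA3, which direct the ligase TRIM28 to the alpha 1 subunit in tumour cells, gave -0.16 (adjusted p = 0.105) and -0.15 (adjusted p = 0.181). MAGEA3 stood at 51.4 to 61.8 FPKM and MAGEA6 at 37.0 to 43.6 over the 6 libraries. Both are near-identical copies, so how the reads were split between them is uncertain.

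Of 17 genes for enzymes of the adenylate pool, which make or use AMP, 12 were tested, 5 above 0 and 7 below (7 and 5 when rescaled to TPM), and limma called 0 (2 at an unadjusted p under 0.05, beside 19.5% of all genes; voom called 1, lower, beside 3.14%). ADSSL1, a muscle form of adenylosuccinate synthase, stood at 5.77 to 6.17 FPKM in control and 3.91 to 5.04 in PRMT1 KD libraries (log2 fold change -0.33; adjusted p = 0.107). ADSS, the other form, stood at 12.9 to 13.8 and 14.1 to 16.9 FPKM (0.17; adjusted p = 0.244), in the opposite direction.

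**Figure D4:**
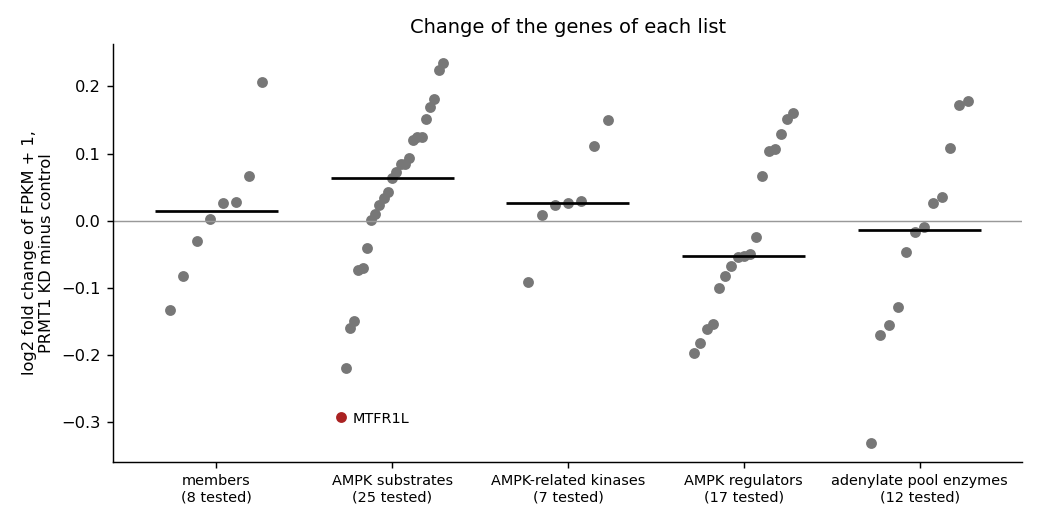
Log2 fold change of FPKM + 1, PRMT1 KD minus control, for the tested genes of the members and of each pathway list, ordered by value within a list. Each point is 1 gene, the black line is the median of the list, and the red point, MTFR1L at -0.29, is the gene called at an adjusted p under 0.05.

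PRKAA1 was the member with the smallest p, and the genes most like it over the 6 libraries were found by Pearson's correlation of log2(FPKM + 1) over 13584 other genes. They were CASP8AP2 and ZHX1 (both r = 0.997), SMC5 (r = 0.996), and FAM208A and ZNF721 (both r = 0.995). The 6 points share library depth and group, 723 genes had an r over 0.9, and the values are a description. ZHX1 stood at a mean of 17.7 FPKM in control and 21.4 in PRMT1 KD cells, and all 5 gave a positive log2 fold change, from 0.20 for FAM208A to 0.41 for ZNF721, with none called (limma, adjusted p 0.173 to 0.202).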

How the data were processed

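RNA of 3 control and 3 PRMT1 KD libraries labelled as MM.1S cells was extracted with TRIzol. The deposited table of the authors holds FPKM for each gene in each library, beside gene length and coordinates. The submitters' processing notes name hg38 and featureCounts 1.5.0-p3, and the counting options, strand setting and aligner are not given in the sources used here. All gene identifiers matched GENCODE 29, and the lengths of the 10 members equalled the union of their exons. Every value above 0 worked back to a whole number of reads (100%, within 0.01 of a read), and the divisor of each library equalled its median-of-ratios size factor times 1 common value.

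Genes with a mean of at least 1 FPKM were tested by limma 3.58.1 (R 4.3.3) on log2(FPKM + 1), with a trended prior variance, two-sided, with Benjamini-Hochberg adjustment over all genes tested and a threshold of 0.05. Fold changes on this scale understate the change of low genes. The fit was tested on simulated data. Exact permutation tests used SciPy 1.17.1 or full enumeration. The alternatives were other pseudocounts, filters, scalings, variance priors, a replicate block, voom and leaving out each library. Levels per length of the longest coding transcript were an alternative chosen after seeing the data. The members and lists were chosen with earlier results of these data known. Named genes were the 10 members, 4 paralogs, PRMT1, every called gene and the 3 smallest p of each list, and the 5 genes most correlated with the member of smallest p. MS4A1, HBB and the other marker genes served as a check, and NUAK1, NUAK2 and MARK1 were named for their zero counts after their values were seen. A result that this rule would name is not reported here.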

Additional observations from a re-analysis of the deposited data

How the results depend on the processing

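No member was called under any of the 14 alternatives. The log2 fold change of PRKAA1 was 0.16 to 0.27 (limma, adjusted p 0.0719 to 0.443), that of CAMKK2 was -0.17 to -0.09 and that of PRMT1 was -2.21 to -2.09. Genes called numbered 279 (145 higher, 134 lower), 35 with no filter, 473 with a mean of at least 5 FPKM, 43 with no trend, 895 with voom, and 13 to 94 with 1 library left out. With TPM the split was 222 higher and 133 lower, and with upper-quartile scaling 129 and 203. Substrates called numbered 0 with no filter, 0 with no trend, 3 with voom (2 higher, 1 lower), and 0 to 0 with 1 library left out; MTFR1L had an adjusted p of 0.0666 with no filter and 0.0769 with no trend, both at a log2 fold change of -0.29, and its call held in the 6 other alternatives that used all libraries (adjusted p from 0.00617 with voom to 0.0495 with the replicate block). With voom 1 regulator and 1 adenylate pool enzyme were called. Uncalled values near 0 changed sign: PRKAB2 was -0.021 with upper-quartile scaling, -0.005 with voom, and -0.05 to 0.037 with 1 library left out, STK11 was -0.023 to 0.103 and CAB39 was -0.028 to 0.064 with 1 library left out. PRKAG1 was -0.155 to -0.027 and PRKAB1 was -0.072 to -0.004 with 1 library left out, so both stayed below 0. The cause of these moves was not tested. Same-numbered libraries deviated together with correlations of 0.02, 0.0631 and 0.1011, beside -0.0751 to 0.0186 for libraries of different number. The sources used here name no pairing, so the numbers were not taken to pair the libraries, and an effect shared by same-numbered libraries was not tested. A fit that blocked on the replicate called 204 genes and 0 members, with PRKAA1 at its lowest adjusted p (limma, unadjusted p = 0.00519, adjusted p = 0.0719). STRADA gave no value with a mean of at least 5 FPKM. Depth limits PRKAG3 and CAMKK1, at 18 to 40 and 1 to 9 reads. The shares of PRKAA1 and PRKAG1 over the members of their subunit were 100% in all libraries, so no test of them was possible.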

Other observations

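Of the 8 tested members, 3 (PRKAA1, PRKAB2 and CAB39) had their highest value in the third library of both groups, as did 2755 of all 13585 genes tested (20.3%). PRKAA1 stood at 9.50 FPKM there in control and 10.8 in PRMT1 KD cells, PRKAB2 at 33.7 and 34.8, and CAB39 at 17.5 and 18.3.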
